A study of Bos taurus with 4 samples.

Results

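Collagens and laminins are the structural proteins of connective tissue and of the basement membrane, the thin matrix sheet on which an epithelium rests. Their genes were taken from the deposited counts by symbol, as every row named COL with a chain number or LAM with a chain letter and number. The rule found 54 of 29792 rows, of which 43 were collagen chains and 11 were laminin chains. COL6A6 and LAMB4 were not analysed here.

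Fibrillar collagens (types I, II, III, V, XI, XXIV and XXVII) assemble into the fibrils of the stroma and are made mainly by fibroblasts and related mesenchymal cells. Basement membranes are built from a laminin network and a collagen IV network joined by nidogen and perlecan. Each laminin is a trimer of an alpha, a beta and a gamma chain, and the alpha chain carries the main binding sites for integrins and dystroglycan. In the gut, epithelial cells and the mesenchyme beneath them both contribute chains to the basement membrane. Collagen IV is made largely on the mesenchymal side, and the laminin alpha 5 chain lines the basement membrane of the villus.

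One RNA library each of bovine intestine, muscle, intestinal organoids at passage 5 (P5) and intestinal organoids at passage 10 (P10) was sequenced from transcript 3′ ends with the QuantSeq kit. All 4 samples carry the strain label Hanwoo cow, a Korean beef breed, and the animals were older than 24 months and healthy. Intestine and muscle were tissue, and the organoids grew from crypts of the jejunum in domes of Matrigel with IntestiCult medium. The comparison asks how far the cultured epithelium keeps the matrix gene expression of the tissue, with muscle as the control tissue. No agent or mutation separates the groups. Matrigel is a basement membrane extract of a mouse tumour that itself holds laminin and collagen IV protein, and the counts measure RNA and not that protein. The layer of the intestinal wall in the tissue sample, the site of the muscle and whether tissue and organoids came from the same animal are not given in the sources used here. With 1 library per group there is no replicate check, so no p-value is given, and every interval below covers counting error only.

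The libraries held from 12917720 reads in muscle to 17776273 in intestine, and the row RN18S1, a ribosomal RNA, took from 0.264% of reads in P10 organoids to 23.6% in muscle. The labels were set against markers of cell types, summed as CPM (the count as a share of the library total, scaled by a fixed factor). The 9 epithelial markers summed to 3159 CPM in intestine, 27.2 in muscle, 12470 in P5 and 10215 in P10 organoids. The 8 skeletal muscle markers summed to 49050 CPM in muscle and to between 2.20 and 3.66 CPM in the other libraries, so the muscle was skeletal muscle by these genes. Intestine held markers of many cell types besides epithelium. Its 8 smooth muscle markers summed to 2532 CPM, its 6 fibroblast markers to 178, its 7 endothelial markers to 57.3 and its 4 leukocyte markers to 263. In P5 organoids the same lists summed to 16.0, 2.72, 3.68 and 4.56 CPM, and in P10 organoids to 13.1, 0.0564, 3.44 and 5.58. Of the 6 fibroblast markers, TCF21 and THY1 had no read in P5, and PDGFRA, PDGFRB, THY1, TCF21 and MFAP5 had none in P10. As sums, epithelial markers were thus higher and mesenchymal markers lower in organoids than in intestine, and their part in the differences below was not tested. In bulk RNA, fewer cells of a type and less RNA per cell cannot be told apart.

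The 54 genes together had 25230 reads in intestine, 17751 in muscle, 4138 in P5 and 4086 in P10 organoids. This was 1419, 1374, 304 and 230 CPM. The organoid sums were 4.66-fold (P5) and 6.16-fold (P10) below that of intestine. The make-up of the sum also differed. Fibrillar chains held 59.7% of these reads in intestine and 35.1% in muscle, but 3.50% in P5 and 6.05% in P10 organoids. Laminin chains held 13.4% in intestine, 28.0% in muscle, 34.9% in P5 and 65.1% in P10 organoids. A single gene, COL17A1, held 44.9% (95% Wilson interval 43.3 to 46.4) of the P5 reads and 7.98% (7.19 to 8.85) of the P10 reads, against 0.0238% in intestine.

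**Figure D1:**
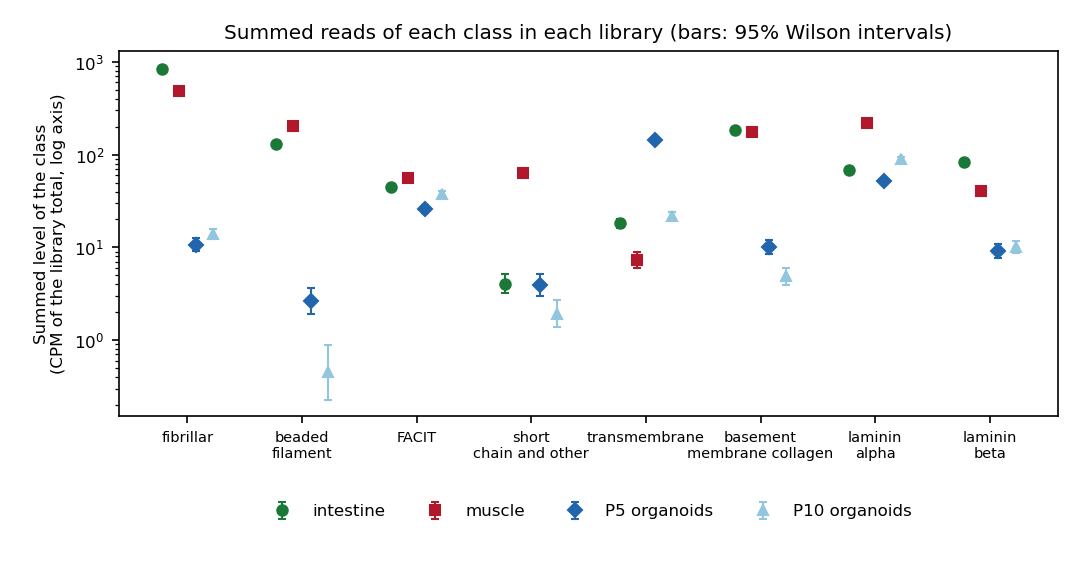
Summed level of the main classes of collagen and laminin genes in the 4 libraries (y axis: CPM of the library total on a log axis; points: 1 library each; bars: 95% Wilson intervals for counting error). Fibrillar and beaded filament collagens lie far lower in both organoid libraries (10.7 and 13.9 CPM, and 2.65 and 0.451 CPM) than in the tissues, while the laminin alpha sums of the organoids lie near that of intestine.

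Differences between libraries are given on the scale of log2(quantile-normalised count + 1), and a gene was called higher or lower at an absolute difference of at least 1 (2-fold) if one of the libraries compared held 10 reads or more. Where a library had 3 reads or fewer, the difference is given as its value at 3 reads. With exactly 3 reads this is the observed difference, given without an interval. With fewer reads it is a bound at that fixed count and does not cover counting error. Against intestine, 28 of the 48 genes with enough reads were lower in P5 organoids and 11 were higher, where 22.8% and 24.9% of all rows tested were lower and higher. In P10 organoids 26 of 45 were lower and 9 were higher, beside 26.1% and 28% of all rows. The median difference of the genes was −2.01 in P5 and −2.72 in P10, and that of all rows was 0.11 in both. With rows near 0 reads set at their bound, the genes had −1.75 and −1.43 and all rows 0.11 and 0.17. Both organoid libraries were set against the same intestine library, so the comparisons are not independent of each other.

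Nearly all lower calls of the quantile scale held under the other scalings between libraries, and several of the higher calls did not. Called lower under quantile, CPM, TMM and upper-quartile scaling alike were 27 of the 28 genes in P5 and all 26 in P10, 23 of which also passed at their bound. Of all rows, 21.8% and 24.2% were called lower in this way. The other scalings also called further genes lower in P10, with 31 of 45 under each of CPM, TMM and upper-quartile scaling. Beside these stood 28.2%, 31.3% and 31.5% of all rows. Of the 11 genes higher in P5, 7 were called under all 4 scalings (COL17A1, COL25A1, COL19A1, COL10A1, COL22A1, COL6A5 and COL9A2). Of the 9 higher in P10, 5 were (COL17A1, COL21A1, COL19A1, COL26A1 and LAMA5). These 7 of 48 and 5 of 45 stood beside 18.0% and 21.6% of all rows, so higher calls were no more frequent among these genes than among all rows. Quantile scaling spreads low counts unevenly, since 10 reads map to 2.32 on the log2 scale in intestine and to between 3.70 and 4.54 in the other libraries. COL11A1, with 21 reads in intestine and 21 in P10, was therefore called higher by 1.05 on the quantile scale, but differed by 0.00 on the CPM scale. Reads are given beside the differences for this reason, and for some genes the CPM or the difference under CPM scaling. Of the 54 genes, 22 overlap another gene model in the assembly ARS-UCD2.0, and for 5 of them (COL4A4, COL9A3, COL10A1, COL18A1 and COL24A1) that model codes for a protein. The use of strand in counting is not stated, so reads of overlapping genes cannot be told apart.

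**Figure D2:**
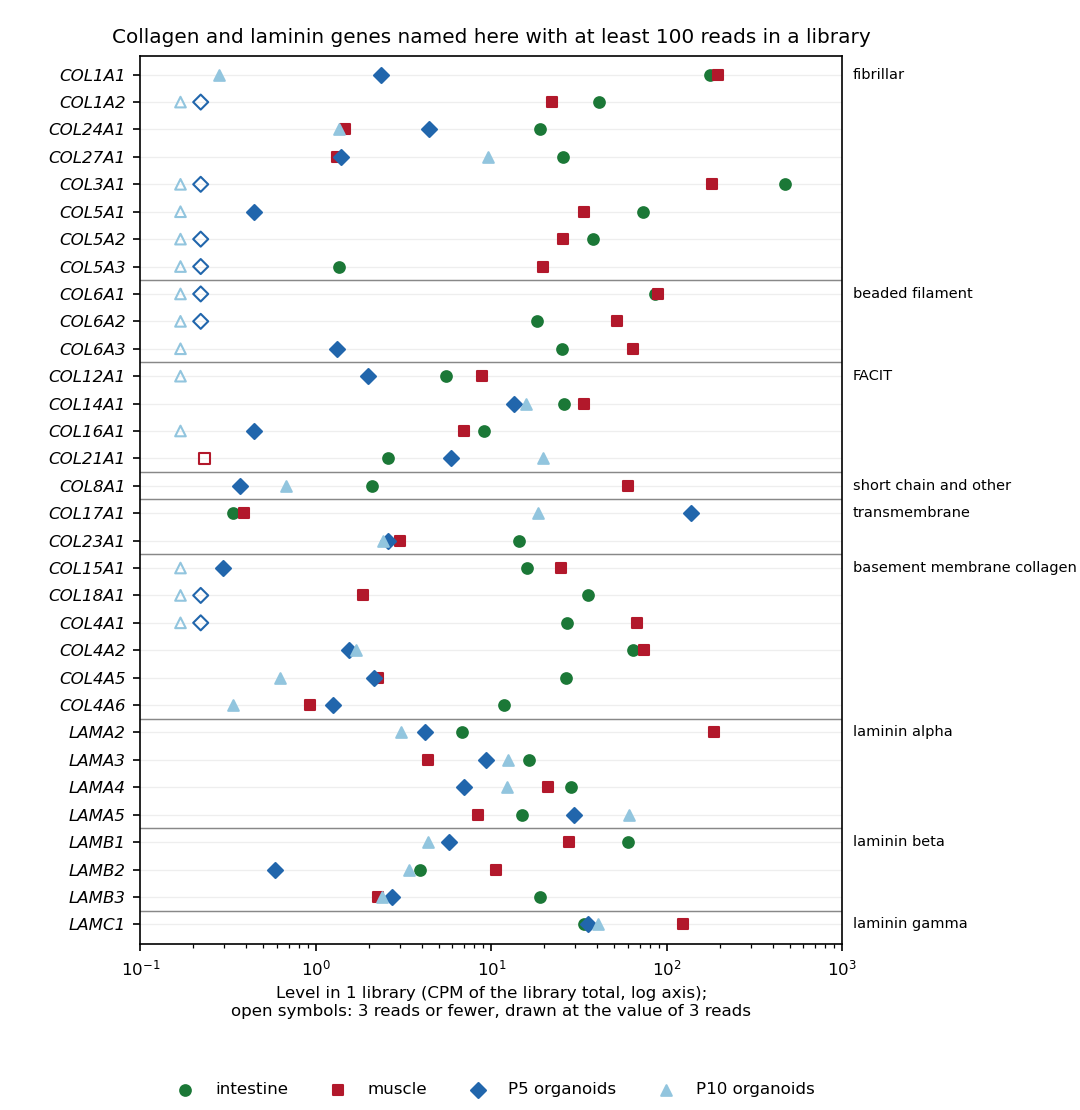
Level of the genes named here with at least 100 reads in a library (x axis: CPM of the library total on a log axis; 1 symbol per library; open symbols: 3 reads or fewer, drawn at the CPM of 3 reads). The fibrillar genes COL1A1, COL1A2, COL3A1, COL5A1 and COL5A2 sit far to the left in both organoid libraries, LAMC1 lies at about the same level in intestine and organoids, and COL17A1 stands to the right only in the organoids.

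Fibrillar chains were nearly absent from the organoid libraries. The class summed to 15062 reads in intestine, 6236 in muscle, 145 in P5 and 247 in P10 organoids, and its level was 79.5-fold (P5) and 60.8-fold (P10) below that of intestine on the CPM scale. COL3A1, the collagen III chain abundant in the distensible walls of gut and vessels, had 8351 reads in intestine, 2349 in muscle and none in either organoid library. By CPM, with the organoid libraries set at 3 reads, the COL3A1 level was at least 2130-fold (P5) and 2777-fold (P10) lower than in intestine. COL3A1 was the most abundant of the 54 genes in intestine and was among the genes with no organoid read. COL1A1, the alpha 1 chain of collagen I, had 3149, 2512, 32 and 5 reads in intestine, muscle, P5 and P10, and fell by 6.16 (95% interval −6.66 to −5.73) in P5 and by 8.27 (−9.11 to −7.52) in P10 against intestine. COL1A2, its partner chain, had 727, 287, 3 and 0 reads. Its difference from intestine was −7.20 in P5, at its 3 reads and without an interval, and at most −6.43 in P10. Beside the 32 reads of COL1A1 in P5, the fibroblast markers PDGFRA and PDGFRB had 15 and 14. MFAP5 had 5 and DPT 3 there, and TCF21 and THY1 had none. In P10, where COL1A1 had 5 reads, DPT had 1 and the other fibroblast markers had none. The source of the COL1A1 reads was not tested.

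The chains of collagen V, which sets fibril diameter, followed collagen I. COL5A1 had 1303, 437, 6 and 2 reads, and its difference from intestine was −7.18 (−8.57 to −6.06) in P5 and at most −7.32 in P10. COL5A2 had 673, 331, 3 and 3 reads. COL5A3, the minor chain, was highest in muscle, with 24 reads in intestine, 253 in muscle, 1 in P5 and 0 in P10. None of these chains kept more than 6 reads in an organoid library.

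COL27A1 and COL24A1 departed from this pattern. COL27A1, known from cartilage, had 455 reads in intestine, 17 in muscle, 19 in P5 and 170 in P10. It lay 3.93 below intestine (−4.69 to −3.34) in P5 and 1.59 below (−1.83 to −1.35) in P10, and held 68.8% (62.8 to 74.3) of all fibrillar reads of the P10 library. COL24A1, known from bone and cornea, had 337, 19, 60 and 24 reads, and held 41.4% (33.7 to 49.5) of the fibrillar reads in P5. The few fibrillar reads of P10 organoids therefore came mostly from COL27A1 rather than from collagens I, III and V. In P5, COL1A1 came after COL24A1 with 22.1% (16.1 to 29.5), and COL27A1 held 13.1% (8.55 to 19.6). A model that codes for a protein overlaps COL24A1, so its share may include reads of that gene. COL11A1 and COL11A2, the minor chains of cartilage fibrils, stayed between 3 and 24 reads in every library, and COL2A1 had 8 reads in P5 and none elsewhere.

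The beaded filament collagen VI, which links fibrils to cells, was low in organoids as well. COL6A1 had 1522 reads in intestine, 1152 in muscle and none in either organoid library, a difference of at most −8.31 in P5 and −7.54 in P10. COL6A2 had 323, 669, 1 and 0 reads. COL6A3 had 450, 832, 18 and 0 reads, and lay at −4.01 (−4.78 to −3.37) in P5. The fourth row of the family, COL6A5, had 4, 1, 17 and 8 reads, so that COL6A3 and COL6A5 held nearly all collagen VI reads of P5 organoids.

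The FACIT collagens, which coat fibril surfaces, differed gene by gene. COL12A1 had 98 reads in intestine, 114 in muscle, 27 in P5 and 0 in P10, a difference from intestine of −0.87 (−1.54 to −0.27) in P5, short of 2-fold on this scale, and of at most −3.12 in P10. Under CPM scaling its P5 value was −1.44. COL16A1 had 161, 90, 6 and 0 reads. COL14A1 had 463, 436, 182 and 278 reads, 1.05 below intestine (−1.30 to −0.81) in P5 and 0.97 below (−1.19 to −0.75) in P10. Under CPM scaling these differences were −0.96 and −0.73, so its P5 call depended on the scaling. COL21A1 was higher in organoids, with 46 reads in intestine, 3 in muscle, 80 in P5 and 347 in P10. Its difference from intestine was 1.74 (1.21 to 2.30) in P5 and 3.23 (2.76 to 3.73) in P10, and over the 4 scalings it ranged from 0.99 to 1.74 and from 2.63 to 3.23. COL14A1 and COL21A1 stood at 15.7 and 19.6 CPM in P10 organoids. In that library the 6 fibroblast markers summed to 1 read, the 8 smooth muscle markers to 232 and the 7 endothelial markers to 61. The cells that gave the COL14A1 and COL21A1 reads were not tested. COL19A1 had 6, 12, 29 and 31 reads, higher than intestine by 3.39 (2.30 to 4.45) in P5 and 3.24 (2.17 to 4.27) in P10. Under CPM scaling these differences were 2.45 and 2.17. COL22A1, placed at the junction of muscle and tendon, had 3, 61, 11 and 6 reads, and COL9A2 had 10 reads in P5 and none elsewhere. COL9A1 and COL9A3 had at most 7 reads and COL20A1 had none.

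Among basement membrane collagens, the 2 chains of the common collagen IV network nearly disappeared from organoids. COL4A1 had 478 reads in intestine, 868 in muscle, 3 in P5 and 0 in P10. Its difference from intestine was −6.57 in P5, at its 3 reads and without an interval, and at most −5.80 in P10. COL4A2 had 1145, 960, 21 and 30 reads, at −5.20 (−5.88 to −4.65) and −4.99 (−5.45 to −4.57). These genes lie next to each other in ARS-UCD2.0 and share a promoter region in other mammals. The reads of COL4A1 per read of COL4A2 were 0.417 (exact interval 0.374 to 0.465) in intestine, 0.904 (0.824 to 0.992) in muscle and 0.143 (0.0273 to 0.478) in P5, so the ratio differed between the tissues by more than counting error.

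COL4A5 and COL4A6, the chains of the basement membrane around smooth muscle and under several epithelia, were highest in intestine. COL4A5 had 472, 29, 29 and 11 reads, −3.44 (−3.98 to −2.97) in P5 and −4.76 (−5.37 to −4.11) in P10. COL4A6 had 211, 12, 17 and 6 reads. The ratio of COL4A5 to COL4A6 stayed between 1.71 and 2.42 in the 4 libraries, and its intervals overlapped. COL4A3 and COL4A4, best known from the kidney filter, had low counts in every library. COL4A3 had 17, 15, 24 and 20 reads and COL4A4 had 42, 25, 35 and 14, with RHBDD1 overlapping COL4A4. The call of COL4A3 as higher in organoids (1.78 in P5, 1.35 in P10) did not hold under CPM scaling (0.84 and 0.22). COL4A4 differed by 0.86 in P5 and −0.46 in P10, neither past 2-fold, but under CPM scaling by 0.12 and −1.51, and its P10 value was below −1 under TMM and upper-quartile scaling too. All 6 chains together fell from 133 CPM in intestine and 148 in muscle to 9.49 in P5 and 4.57 in P10. The 8 smooth muscle and 7 endothelial markers, from cell types that also make collagen IV, were lower in organoids beside this fall, and their part in it was not tested.

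The other collagens of basement membrane zones were at or near the floor in organoids. COL18A1, the source of endostatin, had 631 reads in intestine, 24 in muscle, 2 in P5 and 2 in P10. COL15A1, of vessel and muscle basement membranes, had 285, 324, 4 and 0 reads. COL7A1, the anchoring fibril collagen, had 26, 1, 2 and 3 reads. In P10, COL4A1, COL15A1, COL18A1 and COL7A1 were all at 3 reads or fewer.

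**Figure D3:**
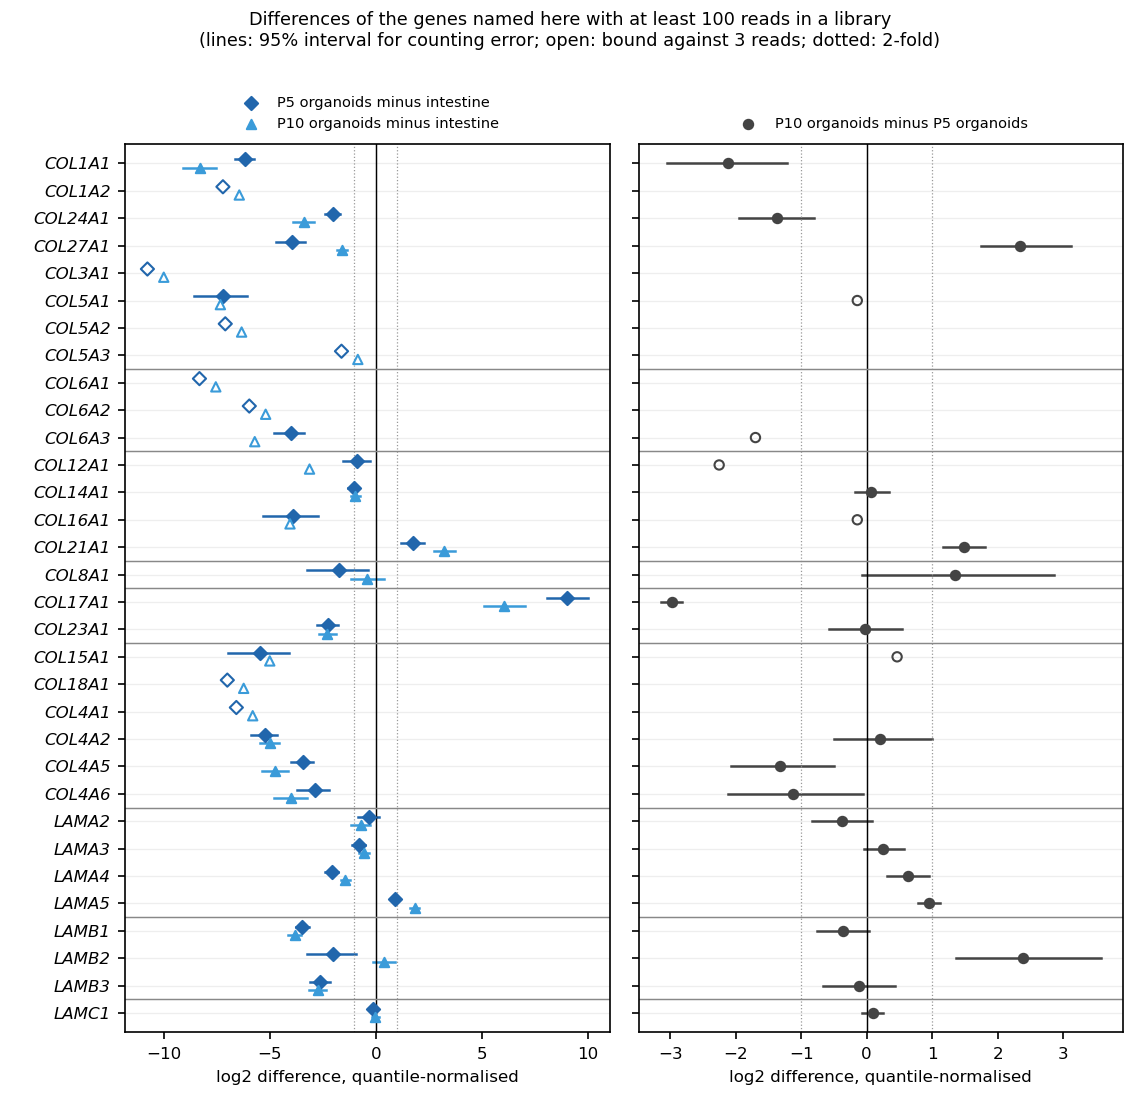
Log2 differences of the genes named here with at least 100 reads in a library (left: each organoid library minus the same intestine library; right: P10 minus P5 organoids; lines: 95% interval for counting error; open symbols: bound against 3 reads; dotted lines: 2-fold; genes with both libraries at 3 reads or fewer are not drawn). COL17A1 stands at 9.03 and 6.05 above intestine, the chains of collagens I, III and VI, COL5A1, COL5A2 and COL4A1 stand below −4, and LAMC1 lies at 0 within its interval.

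Laminin chains as a sum lay less far below intestine than fibrillar and basement membrane collagens did. The 11 rows summed to 3381 reads in intestine, 4976 in muscle, 1444 in P5 and 2660 in P10. On the CPM scale this was 0.558 (0.525 to 0.594) of intestine in P5 and 0.789 (0.749 to 0.830) in P10, beside 0.0126 and 0.0164 for the fibrillar class and 0.0541 and 0.0261 for basement membrane collagens. The FACIT class, at 0.585 and 0.847, lay about as near to intestine as laminin, and the transmembrane class was above it, with a 95% interval of 7.11 to 9.03 in P5 and 1.03 to 1.40 in P10. Within this sum the chains moved differently.

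Among alpha chains, which give a laminin its tissue identity, LAMA5 led in organoids. LAMA5 had 266 reads in intestine, 109 in muscle, 400 in P5 and 1076 in P10. It was above intestine by 0.90 (0.66 to 1.13) in P5, short of the 2-fold call, and by 1.85 (1.64 to 2.06) in P10. Its share of the alpha chain reads was 21.9% (19.7 to 24.3) in intestine, 3.82% (3.18 to 4.59) in muscle, 57.3% (53.6 to 60.9) in P5 and 68.3% (65.9 to 70.5) in P10. Such a share within a library does not depend on the scaling between libraries, and these intervals do not overlap. LAMA3, the alpha chain of the epithelial laminin anchored by hemidesmosomes, had 290, 56, 127 and 220 reads and lay 0.81 (−1.12 to −0.50) and 0.55 (−0.81 to −0.29) below intestine.

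LAMA4, a chain of vessels and mesenchyme, led in intestine. It had 505 reads in intestine, 272 in muscle, 95 in P5 and 217 in P10, and held 41.6%, 9.53%, 13.6% and 13.8% of the alpha chain reads. LAMA4 was 2.06 (−2.37 to −1.76) below intestine in P5 and 1.43 (−1.66 to −1.21) below in P10, but did not vanish as COL4A1 did. LAMA2, the main alpha chain of muscle fibres, had 121, 2410, 57 and 54 reads and held 84.5% (83.1 to 85.8) of the alpha chain reads of muscle. Its difference from intestine was −0.33 (−0.82 to 0.14) in P5 and −0.70 (−1.17 to −0.25) in P10, and did not pass 2-fold on this scale, while under CPM scaling the P10 value was −1.14. LAMA1, mainly an embryonic chain, stayed between 6 and 31 reads.

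The beta chains were low in organoids as a sum, though not each of them in both passages. They summed to 83.2 CPM in intestine and to 9.04 and 10.1 CPM in P5 and P10, and their share of all laminin reads went from 43.7% (42.1 to 45.4) to 8.52% (7.19 to 10.1) and 6.73% (5.84 to 7.75). LAMB1 had 1074 reads in intestine, 358 in muscle, 78 in P5 and 77 in P10, a difference of −3.47 (−3.77 to −3.16) and −3.82 (−4.11 to −3.54). LAMB3, the beta chain of the hemidesmosomal laminin, had 335, 29, 37 and 42 reads, at −2.61 (−3.07 to −2.17) and −2.72 (−3.14 to −2.35). LAMB2 had 70, 137, 8 and 60 reads, lower in P5 by 1.99 (−3.22 to −0.93) and 0.39 (−0.12 to 0.89) above intestine in P10, a value that was −0.21 under CPM scaling. QuantSeq reads come from transcript ends and were not divided by length, but priming and annotation of the 3′ end differ between genes, so the sums do not measure the ratio of the chains in a trimer.

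LAMC1, the gamma chain of most laminins, had 597, 1599, 482 and 716 reads, a difference from intestine of −0.12 (−0.28 to 0.06) in P5 and −0.02 (−0.18 to 0.15) in P10. LAMC3 had at most 2 reads.

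**Figure D4:**
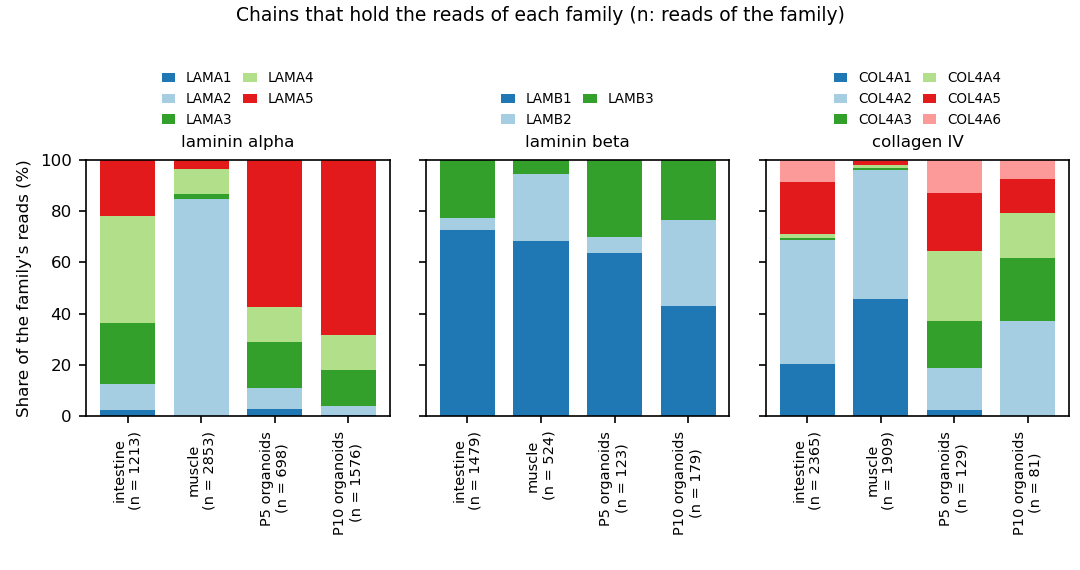
Share of the reads of the laminin alpha, laminin beta and collagen IV families held by each chain in each library (y axis: percent of the summed reads of the family; n: reads of the family). LAMA5 (red) holds 57.3% and 68.3% of alpha chain reads in P5 and P10 organoids and 21.9% in intestine, LAMA2 holds 84.5% in muscle, and COL4A1 and COL4A2 hold most collagen IV reads in the tissues but not in the organoids.

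The gene with the widest margin above intestine was COL17A1, a transmembrane collagen that joins the hemidesmosome to the basement membrane. COL17A1 had 6 reads in intestine, 5 in muscle, 1856 in P5 and 326 in P10, or 0.338, 0.387, 136 and 18.4 CPM. The difference from intestine was 9.03 (8.07 to 9.99) in P5 and 6.05 (5.08 to 7.02) in P10, and over the 4 scalings it ranged from 8.23 to 9.03 and from 5.26 to 6.05. By CPM the gene was 404-fold (185 to 1103) and 54.5-fold (24.8 to 150) above intestine. The 9 epithelial markers, higher in organoids as a sum, differed widely among themselves. KRT18 had 825, 0, 7790 and 33299 reads, CDX2 had 4, 0, 199 and 24, and KRT20 had 23086, 75, 31917 and 12134. Their part in the difference of COL17A1 was not tested. No other gene overlaps COL17A1 in ARS-UCD2.0.

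The other transmembrane collagens had far fewer organoid reads. COL23A1 had 257 reads in intestine, 39 in muscle, 35 in P5 and 43 in P10, and was lower by 2.26 (−2.75 to −1.79) and 2.28 (−2.69 to −1.89). COL25A1, expressed mainly by neurons and by developing muscle, had 19, 23, 77 and 17 reads, higher in P5 by 3.04 (2.30 to 3.91). Under CPM scaling this P5 difference was 2.34. COL13A1 had 40, 27, 3 and 0 reads. Of the short-chain and other collagens, COL8A1, of vessel walls and the cornea, had 37 reads in intestine, 774 in muscle, 5 in P5 and 12 in P10. The other 4 had low counts, with COL8A2 at 15, 36, 10 and 0, COL10A1 (overlapped by NT5DC1) at 5, 4, 23 and 5, COL26A1 at 1, 1, 0 and 17, and COL28A1 at 14, 2, 15 and 0.

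Between passages the question was whether matrix expression held over further culture. In P10 against P5, 6 of 36 genes were higher and 13 were lower, beside 16.1% and 16.6% of all rows, and the median difference was −0.36 against 0.06 for all rows. Most of these calls rested on low counts, since under a minimum of 50 reads 3 of 14 were higher and 3 were lower, beside 12.6% and 12.2% of all rows. Those with at least 100 reads were COL17A1, COL27A1 and COL21A1. COL17A1 fell by 2.98 (−3.14 to −2.81), COL27A1 was higher by 2.35 (1.74 to 3.12) and COL21A1 was higher by 1.49 (1.17 to 1.81). LAMA5 was higher in P10 by 0.95 (0.79 to 1.13), just under the call, and by 1.04 under CPM scaling. LAMB2 was higher by 2.38 (1.36 to 3.58), from 8 to 60 reads. LAMC1 differed by 0.10 (−0.07 to 0.26). Of the 10 laminin chains with enough reads, only LAMB2 passed 2-fold. COL1A1, COL24A1, COL25A1, COL4A4, COL4A5 and COL4A6 were lower in P10 by between 1.12 and 2.11 on the log2 scale. With 1 library per passage, passage cannot be told apart from any other difference between those 2 cultures.

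The 2 tissues differed in the make-up of these genes. The summed level was 1419 in intestine and 1374 in muscle as CPM of the library total, of which RN18S1 took 23.6% in muscle, but 1280 and 2502 with TMM scaling. In intestine against muscle, 9 of 44 genes were higher and 20 were lower, beside 32.3% and 27% of all rows. This split depends on the scaling, since CPM of the library total gives 17 higher and 11 lower, beside 56.8% and 11.4% of all rows, and moves the median of all rows by 1.23. The same calls under all 4 scalings were made for 9 genes higher and 11 lower, beside 31.6% and 11.4% of all rows. Among those higher in intestine were COL18A1, COL21A1, COL24A1, COL27A1, COL4A5, COL4A6, COL7A1 and LAMB3. COL18A1 was higher by 3.05 (2.41 to 3.85), COL4A5 by 2.32 (1.72 to 3.01) and LAMB3 by 1.79 (1.18 to 2.49). Higher in muscle under all 4 scalings were COL19A1, COL22A1, COL4A1, COL5A3, COL6A2, COL6A3, COL8A1, COL8A2, LAMA2, LAMB2 and LAMC1. LAMA2 differed by −5.57 (−5.92 to −5.22), COL8A1 by −6.20 (−6.77 to −5.72), LAMB2 by −3.12 (−3.57 to −2.65) and LAMC1 by −2.43 (−2.58 to −2.31). Muscle fibre laminins join LAMA2 and LAMC1 with LAMB1 or LAMB2, and COL6A2 and COL6A3 encode collagen VI of the muscle matrix. COL1A1 differed by −0.50 (−0.57 to −0.43) and COL3A1 by 0.95 (0.90 to 1.02), both short of 2-fold on the quantile scale. Over the 4 scalings these values ranged from −1.31 to −0.13 and from 0.19 to 1.37, so the 2-fold call of either gene depends on the scaling.

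Genes that fold, modify and cross-link collagen went in both directions. Of 26 rows, 5 were higher and 9 lower in P5 organoids, and 5 higher and 11 lower in P10. The collagen chaperone SERPINH1 had 177 reads in intestine, 106 in muscle and none in either organoid library. PCOLCE, the enhancer of procollagen processing, had 490, 313, 0 and 0 reads, and the cross-linking oxidase LOX had 83, 107, 0 and 0. Another oxidase, LOXL3, had 255, 20, 270 and 277, within 2-fold of intestine in both passages. Of the procollagen proteinases, ADAMTS2 had 177, 72, 1 and 1 reads, BMP1 had 96, 30, 64 and 232, higher than intestine by 1.46 (1.06 to 1.87) in P10, and ADAMTS3 had 24, 22, 63 and 8, higher by 2.45 (1.75 to 3.21) in P5. The prolyl hydroxylase subunit P4HA1 had 1209, 746, 2197 and 2017 reads, higher by 1.05 (0.93 to 1.14) in P5 and 0.48 (0.37 to 0.59) above intestine in P10. Its partner P4HB had 8606, 570, 7178 and 12865 reads, within 2-fold of intestine. P4HB also serves as protein disulfide isomerase in all secretory cells. The lysyl hydroxylase PLOD2 had 17, 89, 51 and 63 reads, above intestine by 2.72 (1.91 to 3.65) in P5.

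Partners of laminin and collagen IV in the basement membrane also went in both directions. Of 6 rows, 1 was higher and 3 lower in both passages. AGRN, a heparan sulfate proteoglycan that binds laminin, had 326 reads in intestine, 261 in muscle, 790 in P5 and 2608 in P10, above intestine by 1.54 (1.34 to 1.74) and 2.88 (2.70 to 3.06). NID1, the nidogen that bridges laminin and collagen IV, had 172, 683, 0 and 0 reads, while its relative NID2 had 1562, 386, 1178 and 3299. SPARC, a collagen chaperone and binding protein, had 2083, 2173, 1 and 0 reads, and PXDN, the peroxidase that cross-links collagen IV, had 139, 264, 0 and 0. HSPG2, or perlecan, had 160, 155, 145 and 274.

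The list of receptors of these proteins also held PLEC, DST and CD151, which are partners of receptors and not receptors themselves. Genes of this list were more often higher than lower in organoids. Of 17 rows, 8 were higher and 3 lower in P5, and 8 higher and 4 lower in P10, with PLEC among the higher in both. ITGA6, the alpha subunit of the hemidesmosomal laminin receptor, had 976 reads in intestine, 101 in muscle, 3300 in P5 and 3234 in P10, above intestine by 1.98 (1.87 to 2.10) and 1.54 (1.43 to 1.65). Its partner ITGB4 had 210, 10, 393 and 413 reads, at 1.26 (0.98 to 1.54) and, short of 2-fold, 0.83 (0.56 to 1.11). BCAM, a receptor of laminin alpha 5, had 180, 95, 667 and 1007 reads, at 2.26 (1.99 to 2.55) and 2.40 (2.14 to 2.68). The collagen receptors differed gene by gene. ITGA2, found on epithelium and platelets, had 156, 37, 880 and 634 reads, and DDR1, the epithelial discoidin receptor, had 716, 176, 1638 and 3228. DDR2 and ITGA11, receptors of fibroblasts for fibrillar collagen, had 882, 391, 9 and 5 reads and 195, 103, 13 and 1. ITGA1, another collagen receptor subunit, had 1257, 543, 400 and 1004 reads, lower than intestine by 1.48 (−1.65 to −1.32) in P5 and 0.64 (−0.76 to −0.51) below it in P10, short of 2-fold. ITGA10 had 72, 11, 18 and 95 reads and was called in neither passage. ITGB1 and DST of the receptor list were called lower in P10 only. ITGB1 had 2647, 777, 1771 and 1548 reads, at −0.43 (−0.53 to −0.34) in P5 and −1.07 (−1.17 to −0.97) in P10. DST had 961, 1341, 462 and 154 reads, at −0.88 (−1.03 to −0.71) and −2.84 (−3.06 to −2.62).

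The other matrix genes of fibrils were low in organoids too. Of 12 rows, 12 were lower and none was higher in P5 organoids by the 2-fold rule, and 10 were lower in P10, again with none higher. DCN, or decorin, had 3351 reads in intestine, 9481 in muscle and none in organoids, and LUM, or lumican, had 915, 456, 0 and 0. FN1, fibronectin, had 3703, 2031, 32 and 79 reads. Of 9 matrix proteases and inhibitors with enough reads, 1 was higher and 7 lower in P5, and 1 higher and 6 lower in P10. The one higher was MMP7, an epithelial matrix metalloproteinase of Paneth cells and glands, with no read in either tissue, 99 in P5 and 194 in P10. For these pathway lists the same background holds as above, of 24.9% higher and 22.8% lower in P5 and 28% and 26.1% in P10. Between the passages, the folding list had 1 gene higher and 2 lower in P10 of 17 with enough reads, and the partners 2 and 0 of 3. The receptor list had 2 and 2 of 16, the fibril-associated genes 3 and 0 of 5, and the proteases and inhibitors 3 and 2 of 6. Between the tissues, the same lists had 5 higher and 10 lower in intestine of 26, 0 and 4 of 6, 4 and 3 of 17, 1 and 9 of 12, and 4 and 1 of 8. Of all rows, 16.1% were higher and 16.6% lower between the passages, and 32.3% and 27% between the tissues. These list counts are on the quantile scale. Under CPM of the library total the tissue shares of all rows were 56.8% and 11.4%. Of the listed genes, AGRN was higher in P10 than in P5 organoids by 1.34 (1.22 to 1.45). ITGA7, a laminin receptor subunit known from muscle, had 43 reads in intestine, 380 in muscle, 24 in P5 and 203 in P10. It was lower in intestine than in muscle by 5.13 (−5.66 to −4.68). Against intestine it differed by 0.32 (−0.44 to 1.04) in P5 and was higher by 2.59 (2.12 to 3.14) in P10.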

How the data were processed

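The authors made QuantSeq 3′ libraries, sequenced them on an Illumina NextSeq, aligned reads with Bowtie2 and counted unique and multiple alignments with Bedtools. The genome build, the annotation and the use of strand in counting are not given in the sources used here, so genes on opposite strands and near-identical copies cannot be told apart and no coordinates are printed. The deposited values are raw read counts per gene symbol, without normalisation. Here 22200 of 29792 rows had at least 1 read and were quantile-normalised over the 4 libraries, the method the study names, and differences were taken on log2(value + 1). Intervals combine exact Poisson bounds of each count, and shares have Wilson intervals, both for counting error only, since PCR copies carry no molecular identifiers. The floor was 3 reads. Scripts ran in R 4.3.3, with edgeR 4.0.16 for scaling factors only, and in Python 3.11.15 with scipy 1.17.1 and pandas 2.3.3, and were tested on simulated data. Genes with at least 100 reads in a library were described with all 4 counts, those with 10 to 99 by range or where they differed from their class, and those with under 10 listed. Genes, classes and lists were chosen with earlier results of these data known. Neighbouring and overlapping genes and symbols are from the NCBI RefSeq table of ARS-UCD2.0, which held all 54 symbols. In all, 11 alternatives were planned. P3H3 of the collagen-folding list was not analysed here, and a planned promoter motif search was not run for want of sequence. 1 laminin gene counted in the sums and calls is not reported here by name.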

Additional observations from a re-analysis of the deposited data

How the results depend on the processing

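With 1 library per group, no replicate could be left out. No paired analysis was possible because each group has 1 library and the result comes from no test. Of 88 counts of genes called under another setting, 75 stayed within 1.5-fold, among them every count of genes lower in P5 or P10 organoids than in intestine. The others were as follows. For intestine minus muscle, the 20 genes lower became 11 under CPM, 12 under CPM without RN18S1 and 13 with at least 50 reads, and the 9 higher became 17 under CPM and 14 without RN18S1. For P5 organoids minus intestine, the 11 higher became 7 under TMM and 4 with at least 50 reads. For P10 organoids minus intestine, the 9 higher became 5 under TMM, 5 under upper-quartile scaling and 4 with at least 50 reads. For P10 minus P5 organoids, the 13 lower became 20 with no minimum and 3 with at least 50 reads, and the 6 higher became 3 with at least 50 reads. Fewer genes are tested with 50 reads and more with no minimum, and the cause of the other moves was not tested. COL16A1 in intestine minus muscle was −1.05, 0.375 under CPM and 0.0489 under CPM without RN18S1. Calling genes on their bound at 3 reads, chosen after seeing the data, left 23 of 26 lower in P10 organoids than in intestine, 11 of 13 lower in P10 than P5 organoids and 8 of 9 higher in intestine than muscle, and changed no other of these counts. Scaling moved the median of all rows by 1.23 (CPM) and 0.23 (TMM) for intestine minus muscle, by −0.19 (TMM) for P5 organoids minus intestine and by −0.24 (upper quartile) for P10 organoids minus intestine. At the depth of these libraries a gene with no read lay below 0.169 to 0.232 CPM.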

Other observations

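Among the small leucine-rich proteoglycans, which bind collagen fibrils, the organoid libraries kept reads of some genes and not of others. DCN and LUM had no read in either organoid library. OGN, or osteoglycin, had 187 reads in intestine, 218 in muscle, 12 in P5 and 102 in P10. ASPN, or asporin, had 138, 210, 5 and 62 reads. Both genes were higher in P10 than in P5 organoids, OGN by 2.42 (95% interval for counting error 1.58 to 3.38) and ASPN by 3.16 (1.84 to 4.59). In the assembly ARS-UCD2.0, OGN, OMD, ASPN and ECM2 all lie within the span of CENPP, a centromere protein gene. ECM2, another matrix protein, had 365, 364, 9 and 74 reads, OMD had 1, 0, 0 and 0, and CENPP had 820, 851, 230 and 760. ECM2, OMD and CENPP were chosen after the values of OGN and ASPN were seen, in 1 library per group, and the use of strand in counting is not stated, so reads of CENPP and of the genes within it cannot be told apart.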
